A study of Homo sapiens with 8 samples.

Results

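TXNIP, the alpha-arrestins ARRDC1, ARRDC2, ARRDC3 and ARRDC4, and the glucose-sensing transcription factors MLXIP (MondoA), MLX and MLXIPL (ChREBP) were examined in MCF-10A breast epithelial cells exposed to the Hsp70 inhibitor JG-98. These 8 genes were taken by symbol from the 60617 genes of the deposited count table. Of the 8, 7 passed a filter on low counts and were among the 17693 genes tested, and MLXIPL did not pass. TXNIP was selected because its RNA moved in opposite directions with JG-98 in the 2 cell lines, so its changes with the drug are given as a description with no test.

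MCF-10A is an established, non-tumorigenic line of human breast epithelium. Empty cells and NeuT cells were each kept without drug or given 1 µM JG-98 over 12 h, with 2 poly(A)-selected RNA libraries in all 4 groups. The medium of every group held horse serum, epidermal growth factor, hydrocortisone, insulin and cholera toxin, and the labels do not say what the NeuT cells carry or how either line was derived. No label says that the replicates came from separate cultures, so the p-values measure only the spread between these libraries. The series set out to ask how transformed cells respond to an inhibitor of Hsp70.

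Alpha-arrestins are adaptor proteins that bring NEDD4-family ubiquitin ligases to membrane proteins and so direct their removal from the cell surface. TXNIP, named for binding thioredoxin, is the best known of them in metabolism, since it takes the glucose transporters GLUT1 and GLUT4 into the cell and lowers glucose uptake. Transcription of TXNIP and of ARRDC4 is known to follow glucose: glucose 6-phosphate brings MondoA or ChREBP, each paired with MLX, to carbohydrate response elements, which are built from paired E-box-like elements, in their promoters.

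The promoters of TXNIP, ARRDC4 and MLX are shown because they alone among the 8 genes held a match. In TXNIP this was a pair of E-box-like elements, and in ARRDC4 and MLX only a single E-box. Sequences are from RefSeq for build GRCh38.p14, in which all 8 genes had at least 1 annotated start, and each runs 5′ to 3′ on the gene's own strand from 250 to 41 bases before the start. Capitals mark a paired-element match in TXNIP and an E-box in ARRDC4 and MLX. The TXNIP stretch is chr1:145996620-145996829 on the minus strand, the ARRDC4 stretch chr15:97960453-97960662 on the plus strand and the MLX stretch chr17:42566850-42567059 on the plus strand.
TXNIP: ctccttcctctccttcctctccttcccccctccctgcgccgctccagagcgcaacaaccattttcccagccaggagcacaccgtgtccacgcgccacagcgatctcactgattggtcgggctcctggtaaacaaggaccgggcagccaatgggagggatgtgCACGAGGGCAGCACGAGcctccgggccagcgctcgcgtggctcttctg
ARRDC4: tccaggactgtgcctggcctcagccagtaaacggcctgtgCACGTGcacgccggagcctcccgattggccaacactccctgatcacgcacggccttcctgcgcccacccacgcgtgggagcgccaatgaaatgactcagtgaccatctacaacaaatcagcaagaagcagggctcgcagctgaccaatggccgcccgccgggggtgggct
MLX: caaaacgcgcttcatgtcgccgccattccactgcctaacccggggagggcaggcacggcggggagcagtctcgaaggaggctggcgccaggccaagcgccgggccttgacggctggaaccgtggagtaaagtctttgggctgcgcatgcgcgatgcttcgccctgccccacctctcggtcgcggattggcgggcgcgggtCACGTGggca

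The 250 bases before each start were searched on both strands for 3 motifs: the E-box CACGTG, a pair of E-box-like elements 5 bases apart written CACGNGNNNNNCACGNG, and the CCAAT box written CCAAT. An element, CACGNG, can itself be the E-box, so the first 2 motifs can overlap. TXNIP had the paired elements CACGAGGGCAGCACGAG at 88 to 72 bases before its upstream start, and no E-box. The pair occurred in 16 of 35116 windows (0.0456%), so this exact string is rare in these windows. Pairs spelled or oriented otherwise were not searched for. Of the glucose-responsive genes listed further on, 17 had a window and 0 held the pair. Its rarity is thus that of the string and not of carbohydrate response elements. ARRDC4 had no such pair and an E-box at 210 to 205 bases before its start, and MLX had an E-box at 50 to 45 bases before its start. An E-box occurred in 2228 of the 35116 windows (6.34%). CCAAT boxes were found 2 times in the TXNIP window and 3 times in that of ARRDC4, and in 32% of all windows. ARRDC1, ARRDC2, ARRDC3, MLXIP and MLXIPL held neither the E-box nor the pair in these windows, which says only that these letters are not there. No binding was measured, and each match is a description of the sequence.

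**Figure D1:**
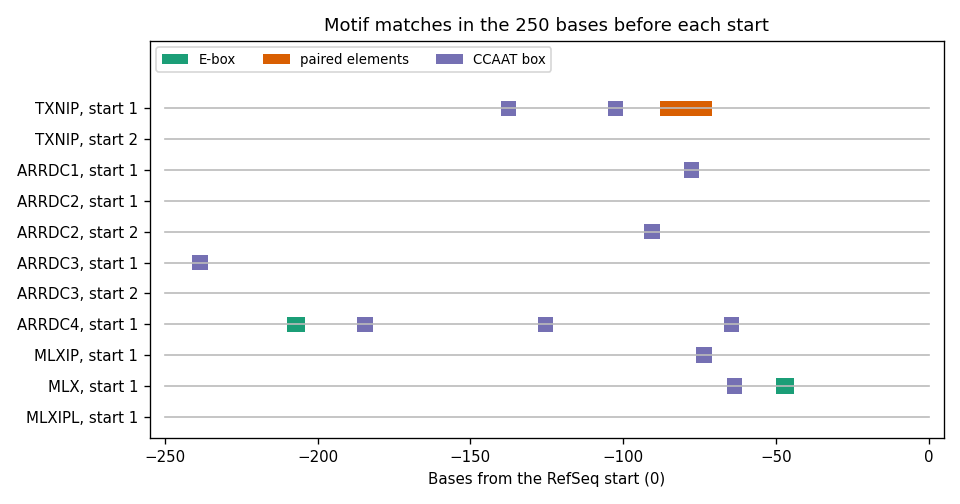
Positions of motif matches in the 250 bases before each RefSeq start of the 8 genes, with 1 line per start and the distance to the start in bases on the x axis. The paired elements appear only in the TXNIP line, at 88 to 72 bases, and E-boxes only in the ARRDC4 and MLX lines.

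Of the 16 genes whose windows held the pair, 12 were tested. A gene is called where its adjusted p by edgeR was under 0.05, and over the whole table this held for 0.339% of genes with JG-98 in Empty (0.260% higher and 0.0791% lower) and 3.01% in NeuT (2.01% higher and 1.01% lower). These shares depend on the libraries used. The Empty split of 46 higher and 14 lower calls became 5 and 11 without untreated replicate 1, 6 and 11 without untreated replicate 2 and 3 and 6 without treated replicate 1 of Empty. An unadjusted p under 0.05 was found for 9.83% of all genes in Empty and 16% in NeuT. Besides TXNIP, 0 of the other 11 were called with JG-98 in Empty (1 at an unadjusted p under 0.05, 0 with DESeq2 and 0 with limma-voom) and 1 was in NeuT, too few genes to set apart from those shares. Without treated NeuT replicate 1, a fit that called 11.4% of all genes in NeuT and 2.23% in Empty, 2 of the 11 were called in NeuT. The gene called was GFPT1, the enzyme that sends fructose 6-phosphate into hexosamine synthesis, and it is named after its value was seen. In NeuT cells GFPT1 rose with the drug by 0.57 on the log2 scale (SE 0.072, adjusted p = 0.000252 by edgeR's quasi-likelihood test), and in Empty its log2 change was 0.12 (adjusted p = 0.622).

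The libraries held 55050996 to 56861971 counts, except the first JG-98-treated Empty library with 37341458. Levels are given as CPM, read counts set to a shared library size with TMM factors, which ranged from 0.967 to 1.032. All 8 breast epithelial markers (such as KRT5 and CDH1) were at 1 CPM or more, with a summed level of 17655.1 to 19589.5 CPM. Of 9 markers of leukocytes, endothelium, fibroblasts and fat cells, 2 reached 1 CPM. These were PECAM1, with group means of 8.51 to 12.7 CPM, and COL1A1, with group means of 4.78 to 5.56 CPM. ADIPOQ was at 0 in every library, and the sum of all 9 was 13.1 to 20.5 CPM. The epithelial marker TP63 had a mean of 2.74 CPM in untreated Empty. The JG-98-treated NeuT libraries stood apart from each other: their chi-square statistic per gene was 19.9, against 4.28 for untreated Empty, 7.54 for treated Empty and 4.37 for untreated NeuT. Calls among the 8 genes that changed when either of them was left out are given with and without it.

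TXNIP was the most abundant of the 8 genes per length, the only comparison of levels made between genes. In untreated Empty cells its level was 41.9 CPM per kb of exon (SD 1, n = 2), above 93.7% of the tested genes, and in untreated NeuT cells it was 117 (SD 3.3, n = 2), above 98% of them. ARRDC1 and MLX followed with 15.3 and 14.6 CPM per kb in untreated Empty and 17.9 and 19.5 in untreated NeuT. ARRDC3 was at 9.38 and 9.37, MLXIP at 7.34 and 7.94, ARRDC4 at 5.36 and 5.2 and ARRDC2 at 2.92 and 2.68 CPM per kb in these groups. Both lines thus expressed ARRDC1 to ARRDC4 and the MondoA-MLX pair. MLXIPL, the glucose sensor best known from liver and fat, had 43 counts in all libraries together, with 0 to 10 per library and at most 0.186 CPM. The count of 0 in the first untreated Empty library allows up to 3 counts, or 0.0528 CPM, a limit that covers counting error only since PCR reads are not independent molecules.

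**Figure D2:**
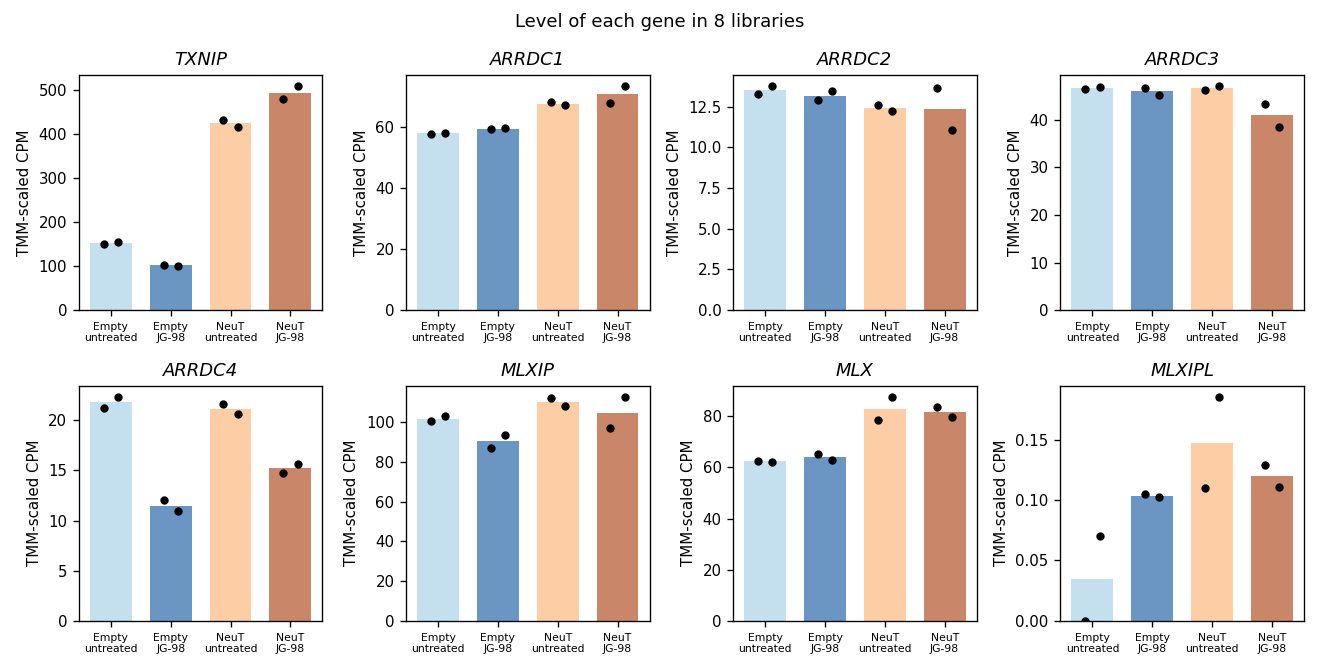
Level of each of the 8 genes in TMM-scaled CPM (y axis, from 0, with a scale per gene) in the 4 groups. Bars are means of 2 libraries and points are single libraries. TXNIP differs most between the lines, ARRDC4 is lower in the JG-98-treated groups of both lines, and MLXIPL stays at or under 0.186 CPM.

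TXNIP (ENSG00000265972, chr1:145992435-145996600, minus strand, GRCh38 as in the deposited table) was at 149 and 154 CPM in the untreated Empty libraries and at 103 and 100.4 CPM in the JG-98-treated ones. In NeuT it was at 432 and 415 CPM without drug and at 478 and 508 CPM with it. The 4 groups did not overlap, and their order was treated Empty, untreated Empty, untreated NeuT and treated NeuT. As counts are summed over the gene's exons in bulk RNA, fewer cells expressing a gene and less RNA per cell cannot be told apart.

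With JG-98, the log2 difference of TXNIP was -0.58 (SE 0.055) in Empty, 1.5-fold lower, and 0.22 (SE 0.053) in NeuT, 1.16-fold higher. The NeuT change minus the Empty change was 0.80 (SE 0.076) on the log2 scale. These values chose the gene and carry no p. Leaving out either treated NeuT library gave a NeuT change of 0.26 without replicate 1 and 0.17 without replicate 2. In the authors' deposited table the log2 fold change of TXNIP was -0.57 in Empty and 0.22 in NeuT.

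Between the lines, a contrast not used to select TXNIP could be tested: the mean of both NeuT groups against the mean of both Empty groups. TXNIP was higher in NeuT by 1.88 on the log2 scale (SE 0.039, adjusted p = 6.9e-16), a 3.68-fold difference, with all 4 NeuT libraries above all 4 Empty libraries. Differences between these lines were common, with 53.7% of the tested genes called in this contrast (27.2% higher and 26.6% lower in NeuT). That split of 4809 higher and 4698 lower became 3947 and 5730 with library totals. Among untreated cells the log2 difference of TXNIP was 1.48 (SE 0.055), 2.79-fold, given without a test because it shares the untreated libraries with the changes that chose the gene. Over the alternatives run, the averaged difference stayed between 1.81 and 1.91.

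ARRDC4 (ENSG00000140450, chr15:97960703-97973833, plus strand), an alpha-arrestin that also lowers glucose uptake and is a classic partner of TXNIP among MondoA targets, was lower with JG-98 in both lines. It was at 21.2 and 22.3 CPM in untreated Empty and at 12.0 and 10.9 CPM in treated Empty. In NeuT it was at 21.6 and 20.7 CPM without drug and 14.7 and 15.6 CPM with it. Both treated groups lay below both untreated groups with no overlap, while the untreated groups of the lines overlapped.

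The fall in Empty was 0.93 on the log2 scale (log2 difference -0.93, SE 0.09, adjusted p = 7.51e-05 by edgeR), 1.9-fold, and ARRDC4 had the third lowest p of all genes there. In NeuT its log2 difference was -0.48 (SE 0.088, adjusted p = 0.00551), 1.39-fold lower. The call in Empty held under all 17 alternatives, with log2 differences of -0.99 to -0.86. The call in NeuT was lost without untreated NeuT replicate 1 (log2 difference -0.45, adjusted p = 0.10) and held under the other 16, with an adjusted p of 5.98e-05 or more over all of them. The authors' deposited table lists ARRDC4 at -0.87 in Empty (adjusted p = 0.000467) and -0.48 in NeuT (adjusted p = 0.0117).

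The drug response of ARRDC4 was not shown to differ between the lines. Its NeuT change minus its Empty change was 0.45 on the log2 scale (SE 0.13, adjusted p = 0.448), and it passed the test only without treated NeuT replicate 1 (0.49, adjusted p = 0.0348, in a range of 0.0348 to 0.966 over the alternatives). Of the 6 tested genes other than TXNIP, 0 were called for the difference between the lines with edgeR, DESeq2 or limma-voom, and ARRDC4 alone had an unadjusted p under 0.05. With edgeR 1 gene of the whole table was called there (0.00565%). That gene was TXNIP itself, which was selected on this difference, so no other gene makes up the share. The count rose to 26 with DESeq2 and 138 with no filter on low counts. Averaged over treatment, ARRDC4 was higher in NeuT by 0.18 on the log2 scale (SE 0.063, adjusted p = 0.0214). That call was lost when counts were scaled by library totals alone (0.11, adjusted p = 0.152, the highest over the alternatives, which began at 0.00852). It was also lost without untreated Empty replicate 1, treated Empty replicate 2 or untreated NeuT replicate 1, where the adjusted p was 0.0667 to 0.0985. In untreated cells the lines had a log2 difference in ARRDC4 of -0.04 (SE 0.086, adjusted p = 0.713).

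**Figure D3:**
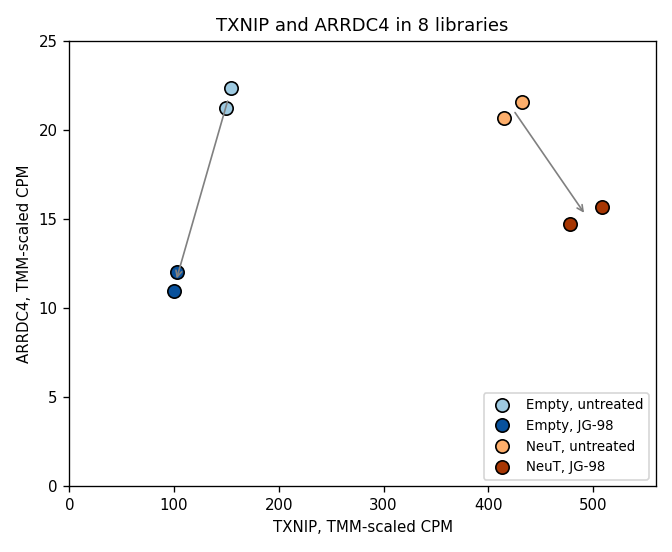
TXNIP (x axis) against ARRDC4 (y axis), both in TMM-scaled CPM from 0, with 1 point per library and an arrow from the untreated to the treated mean of each line. In Empty the arrow runs down and to the left, and in NeuT it runs down and to the right.

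The ratio of TXNIP to ARRDC4 per length shows how the 2 genes parted. It was 7.88 and 7.75 in untreated Empty, 9.58 and 10.3 in treated Empty, 22.4 and 22.5 in untreated NeuT and 36.4 in both treated NeuT libraries. The ratio was therefore higher with the drug in both lines without overlap, since in Empty ARRDC4 had the larger log2 fall of the pair and in NeuT the genes moved apart. No test was made of this ratio, because TXNIP was selected on the same changes.

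The other alpha-arrestins did not pass the test with JG-98 in either line. Of the 6 tested genes other than TXNIP, 1 was called with the drug in Empty and 1 in NeuT, ARRDC4 in each case, beside the 0.0791% and 1.01% of all genes called lower. The first share rests on 14 genes, a count that was 6 to 157 with 1 library left out and 56 with DESeq2. ARRDC1 (ENSG00000197070, chr9:137605685-137615360), which is known for releasing vesicles from the plasma membrane, was at 57.9 and 58.2 CPM in untreated Empty and 59.3 and 59.8 with drug. In NeuT it was at 68.3 and 67.3 CPM without drug and 68.2 and 73.6 with it. Its log2 differences with JG-98 were 0.04 (SE 0.062, adjusted p = 0.898) in Empty and 0.06 (SE 0.061, adjusted p = 0.677) in NeuT, so the levels of ARRDC1 followed the line and not detectably the drug.

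ARRDC3 (ENSG00000113369, chr5:91368631-91383317), an adaptor for the beta-2 adrenergic receptor and for integrin beta-4 in breast cells, was at 46.6 and 46.9 CPM in untreated Empty and 46.8 and 45.3 with drug. In NeuT it was at 46.3 and 47.1 CPM without drug and 43.4 and 38.6 with it. The treated NeuT libraries were the lowest of all 8, and they lay apart from each other. Their log2 difference from untreated NeuT was -0.19 (SE 0.07, adjusted p = 0.183). Over the alternatives it ranged from -0.28, without treated NeuT replicate 1, to -0.11. The change of ARRDC3 in NeuT minus that in Empty was -0.17 (SE 0.098, adjusted p = 0.712), in a range of -0.261 to -0.0949 over the alternatives.

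ARRDC2 (ENSG00000105643, chr19:18001132-18014102), the least abundant of the tested alpha-arrestins per length, ranged from 12.9 to 13.8 CPM in the Empty libraries and from 11.1 to 13.7 CPM in NeuT. The lowest and highest NeuT values of ARRDC2 were both from treated cells. Its log2 differences with JG-98 were -0.04 (SE 0.1, adjusted p = 0.953) in Empty and -0.01 (SE 0.1, adjusted p = 0.985) in NeuT. Over the alternatives the Empty value ranged from -0.0715 to -0.00856.

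**Figure D4:**
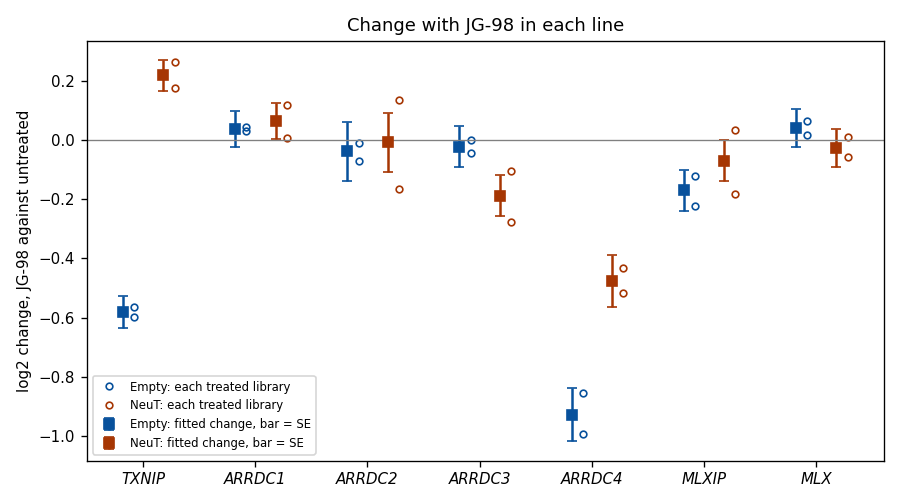
Log2 change with JG-98 in Empty and NeuT for the 7 genes with enough counts. Squares are fitted changes with SE bars, and open circles are single treated libraries against the mean of the untreated ones. TXNIP lies at -0.58 and 0.22, ARRDC4 lies at -0.93 and -0.48, and the rest lie between -0.19 and 0.06.

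The glucose sensors themselves did not pass the test with the drug. MLXIP (ENSG00000175727, chr12:122078756-122147344), which encodes MondoA, was at 100.5 and 103 CPM in untreated Empty and 87.2 and 93.6 with drug. In NeuT it was at 112 and 108 CPM without drug and 97.0 and 113 with it. The Empty groups did not overlap and the NeuT groups did. Its log2 differences were -0.17 (SE 0.069, adjusted p = 0.405) in Empty and -0.07 (SE 0.069, adjusted p = 0.689) in NeuT, where the sign turned (0.03) without treated NeuT replicate 1.

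MLX (ENSG00000108788, chr17:42567068-42573239), the partner that both MondoA and ChREBP need to bind DNA, was at 62.5 and 62.1 CPM in untreated Empty and 65.2 and 63.0 with drug. In NeuT it was at 78.4 and 87.6 CPM without drug and 83.4 and 79.6 with it. All 4 NeuT libraries were above all 4 Empty libraries, whatever the treatment. Its log2 differences with JG-98 were 0.04 (SE 0.065, adjusted p = 0.896) in Empty and -0.03 (SE 0.064, adjusted p = 0.899) in NeuT.

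Between the lines averaged over treatment, 4 of the 6 tested genes other than TXNIP were called, each higher in NeuT, beside the 27.2% of all genes called higher. Besides ARRDC4, these were MLX by 0.38 on the log2 scale (SE 0.046, adjusted p = 1.91e-06), ARRDC1 by 0.24 (SE 0.043, adjusted p = 0.000171) and MLXIP by 0.16 (SE 0.049, adjusted p = 0.00933). The MLXIP call was lost with counts scaled by library totals alone (0.09, adjusted p = 0.123, in a range of 2.02e-05 to 0.123 over the alternatives), a scaling that moved the median of all genes from -0.0072 to -0.079. ARRDC2 and ARRDC3 had averaged log2 differences of -0.11 (adjusted p = 0.243) and -0.08 (adjusted p = 0.164). Without treated NeuT replicate 1 both were called lower in NeuT (ARRDC2 at -0.17, adjusted p = 0.0479, and ARRDC3 at -0.12, adjusted p = 0.0358), and with library totals ARRDC3 was (-0.16, adjusted p = 0.0152). Over the alternatives the adjusted p reached 0.781 for ARRDC2 and 0.565 for ARRDC3. In untreated cells alone, where 42.0% of all genes were called, MLX (0.41, adjusted p = 5.97e-05) and ARRDC1 (0.22, adjusted p = 0.00689) were higher in NeuT. The ARRDC1 call in untreated cells was lost in 3 of the fits that left out 1 library, those without either untreated Empty library or without untreated NeuT replicate 1 (adjusted p = 0.0517 to 0.0583, against 0.000234 at the lowest).

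Gene overlap limits some of these values, because the use of strand in the authors' counting is not given in the sources used here. Of the exonic length, 18.1% in MLX was shared with PSMC3IP, 5.59% in ARRDC1 with ARRDC1-AS1 and an unnamed gene, 9.53% in ARRDC2 with a gene listed at 0 counts and 2.91% in ARRDC3 with ARRDC3-AS1. The largest count of an overlapping gene in a library was 625 for PSMC3IP, 482 for the genes that overlap ARRDC1 and 32 for ARRDC3-AS1. ARRDC1 itself had 2260 to 3978 counts per library. TXNIP, ARRDC4, MLXIP and MLXIPL shared no exonic base with another gene.

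The known targets of MondoA and ChREBP were described by their counts beside those of all genes. Of 22 such genes, 18 were tested, and 0 were called with JG-98 in Empty (0.339% of all genes), where the median log2 difference was -0.06 beside -0.0033 over all genes. At an unadjusted p under 0.05 there were 6 in Empty (9.83% of all genes) and 5 in NeuT (16% of all genes), and DESeq2 and limma-voom called 0 in Empty. In Empty 14 of the 18 log2 differences were below 0, and in NeuT 10 were. In NeuT edgeR called 1 beside 3.01% of all genes (DESeq2 called 2): PFKFB3, which makes the allosteric activator of phosphofructokinase, fell from 71.1 and 71.7 CPM in the untreated libraries to 51.0 and 53.6 CPM in the treated ones. The log2 difference of PFKFB3 in NeuT was -0.45 (SE 0.067, adjusted p = 0.000974), and in Empty it was -0.16 (SE 0.069, adjusted p = 0.429). The list's median in NeuT was -0.04 beside 0.00021 over all genes. Without treated NeuT replicate 1, 3 were called in NeuT and 1 in Empty, beside 11.4% and 2.23% of all genes in that fit. Of the glucose-phosphorylating hexokinases that supply the sensors' signal, 3 of 5 were tested and 0 were called with the drug in either line by edgeR, DESeq2 or limma-voom, with 1 at an unadjusted p under 0.05 in Empty and 0 in NeuT.

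Between the lines, 12 of the 18 glucose-responsive genes were called, 10 higher and 2 lower in NeuT, with a median of 0.12. The 4 lowest p-values were those of BHLHE40, a transcriptional repressor (0.63, SE 0.038, adjusted p = 3.07e-10), HK2, the inducible hexokinase (0.70, SE 0.044, adjusted p = 5.07e-10), PFKFB3 (0.73, SE 0.048, adjusted p = 1e-09) and KHK, which phosphorylates fructose (-1, SE 0.08, adjusted p = 1.03e-08). HK2 was at 67.9 and 68.5 CPM in untreated Empty and at 108 CPM in both untreated NeuT libraries. These lines differ in most genes tested, and 12 of 18 is to be read against the 53.7% of all genes called. The 10 higher and 2 lower are to be read against 27.2% and 26.6% of all genes.

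Genes of thioredoxins, thioredoxin reductases and peroxiredoxins were listed together with genes whose products TXNIP binds, removes from the membrane or answers to. Of the 14 tested, 0 were called with the drug in either line by edgeR, DESeq2 or limma-voom. Their medians were 0.06 in Empty and 0.04 in NeuT, and 4 and 5 of them had an unadjusted p under 0.05, beside 9.83% and 16% of all genes. The shares of all genes called were 0.339% and 3.01%, so 0 of 14 says little about the list. Leaving out treated NeuT replicate 1 gave 1 called gene in Empty and 3 in NeuT, beside 2.23% and 11.4% of all genes in that fit. TXN, which encodes thioredoxin, was at 414 to 417 CPM in untreated Empty and 447 to 462 in treated Empty, and at 467 to 469 and 427 to 489 in untreated and treated NeuT. SLC2A1, which encodes GLUT1, had log2 differences with JG-98 of 0.03 (adjusted p = 0.891) in Empty and -0.11 (adjusted p = 0.27) in NeuT. Between the lines, 9 of the 14 were called, 6 higher and 3 lower in NeuT, beside 53.7% of all genes (27.2% higher and 26.6% lower). SLC2A1 was higher in NeuT by 0.53 (SE 0.035, adjusted p = 1.21e-09), from 416 to 417 CPM in untreated Empty to 622 to 639 CPM in untreated NeuT. The same contrast called NLRP3, the inflammasome sensor, at 2.01 (SE 0.22, adjusted p = 8.19e-07), SLC2A3, which encodes GLUT3, at 4.92 (SE 0.58, adjusted p = 1.32e-06) and DDIT4, an inhibitor of mTORC1, at 0.32 (SE 0.041, adjusted p = 3.44e-06). SLC2A3 was under 0.82 CPM in every library, so its fitted size depends on few counts.

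The NEDD4-family ligases, which bind the PPxY motifs of alpha-arrestins, had 0 of 9 called with JG-98 in either line by edgeR or limma-voom, and DESeq2 called 1 in NeuT, SMURF2. With 0.339% and 3.01% of all genes called by edgeR, 0 of 9 says little about the list. At an unadjusted p under 0.05 there were 1 in Empty and 6 in NeuT, beside 9.83% and 16% of all genes. Without treated NeuT replicate 1, 5 of the 9 were called in NeuT and 1 in Empty, beside 11.4% and 2.23% of all genes in that fit. Their median log2 difference was 0.01 in Empty and 0.17 in NeuT. Between the lines 6 of the 9 were called, 5 higher and 1 lower in NeuT, beside 53.7% of all genes (27.2% higher and 26.6% lower). NEDD4L had the lowest p of them (0.30, SE 0.041, adjusted p = 8.72e-06). Other arrestins had 2 of 5 genes tested (ARRDC5, at most 0.245 CPM, was not) and 0 called with the drug by any of these tools, also at an unadjusted p under 0.05, beside the 0.339% and 3.01% of all genes called. ARRB2, a beta-arrestin, was lower in NeuT (-0.53, SE 0.055, adjusted p = 3.31e-07).

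The MAX and MLX network holds the other transcription factors that compete for partners and E-boxes. Of its 9 tested genes 0 were called by edgeR, DESeq2 or limma-voom with JG-98 in Empty (1 at an unadjusted p under 0.05) and 1 in NeuT, beside 0.339% and 3.01% of all genes. The gene called was MXD1, a MAX-binding repressor. MXD1 was at 33.5 and 35.8 CPM in untreated NeuT and 44.9 and 52.0 CPM with drug (0.48, SE 0.078, adjusted p = 0.00195), and its log2 difference in Empty was 0.25 (adjusted p = 0.26). The NeuT call of MXD1 was lost without untreated NeuT replicate 2 (adjusted p = 0.0945), and MXD1 was called in Empty without either treated NeuT library (adjusted p = 0.0385 and 0.0412). Without treated NeuT replicate 1, 2 genes of the network were called in NeuT, beside 11.4% of all genes in that fit. Between the lines 8 of the 9 were called, 6 higher and 2 lower in NeuT, beside 53.7% of all genes (27.2% higher and 26.6% lower). The largest averaged log2 difference was that of MXD4 (1.43, SE 0.044, adjusted p = 4.98e-14), followed by MXI1 (1.08, SE 0.061, adjusted p = 1.28e-10), both MAX-binding repressors.

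Glucocorticoid-induced genes were counted because the medium of all groups holds hydrocortisone and because TXNIP is known to answer to other signals than glucose. Of 8 such genes, all tested, 2 were called with the drug in Empty and 3 in NeuT, each higher, beside 0.260% and 2.01% of all genes. DESeq2 called 3 in each line, beside 0.853% of all genes in Empty and 4.08% in NeuT with that tool. With limma-voom 2 were called in Empty and 3 in NeuT, beside 0.249% and 2.85% of all genes. TSC22D3, which encodes the leucine zipper protein GILZ, rose in both lines, from 27.0 and 28.3 CPM to 36.3 and 37.8 in Empty (0.42, adjusted p = 0.0136) and from 35.2 and 37.7 to 54.9 and 59.4 in NeuT (0.65). ERRFI1, a feedback inhibitor of the epidermal growth factor receptor, also rose in both lines (0.32 in Empty, adjusted p = 0.0115, and 0.49 in NeuT), and the phosphatase gene DUSP1 rose in NeuT (0.30). In Empty DUSP1 had a log2 difference of 0.25 (adjusted p = 0.0958 with edgeR and 0.014 with DESeq2). Its Empty value was 0.255 without treated NeuT replicate 1 and 0.254 without treated NeuT replicate 2. Both Empty calls rest on all 4 Empty libraries: without any 1 of them the adjusted p was 0.0609 to 0.256 for TSC22D3 and 0.0523 to 0.348 for ERRFI1. The NeuT call of DUSP1 was lost without either untreated NeuT library (adjusted p = 0.102 and 0.17). The other listed genes, FKBP5, PER1, ZBTB16, KLF9 and SGK1, passed in neither line, with log2 differences of -0.12 to 0.22. The part of glucocorticoid signalling in the TXNIP values was not tested.

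**Figure D5:**
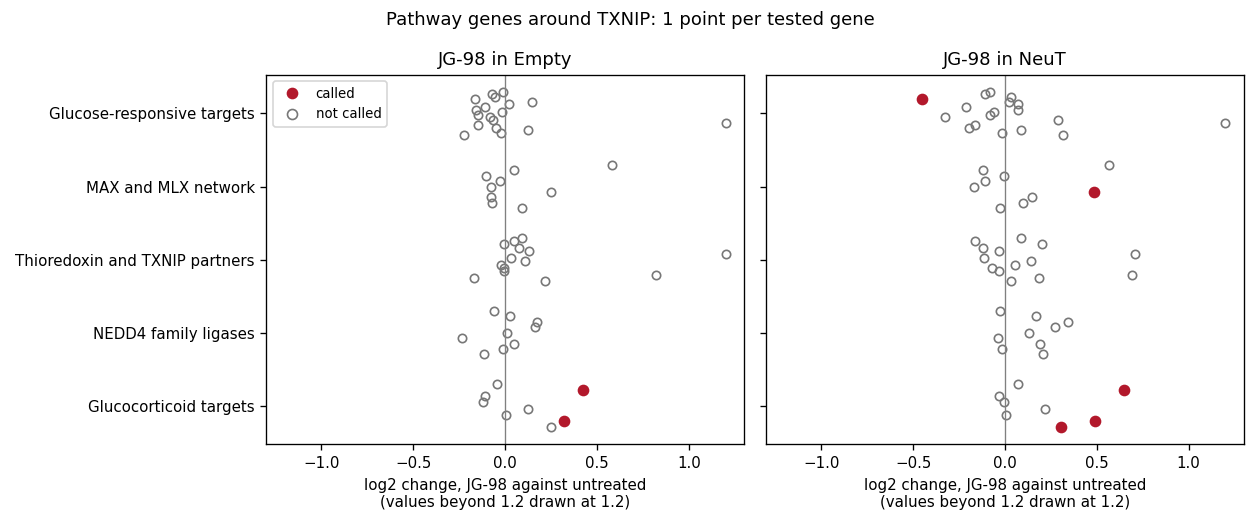
Log2 change with JG-98 in Empty (left) and NeuT (right) for the tested genes of 5 pathway lists, with 1 point per gene. Filled points passed an adjusted p of 0.05, open points did not, and values beyond 1.2 are drawn at 1.2. Of the glucose-responsive targets only PFKFB3 in NeuT is filled, and the glucocorticoid targets hold 2 filled points in Empty and 3 in NeuT.

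Genes whose pattern over the 8 libraries was most like that of TXNIP were sought among 3483 genes averaging 50 or more counts per library and having an SD of log2 CPM of 0.3 or more. The highest Pearson r values with TXNIP were those of ACSL5 (0.994), H4C8 (0.993), MCC, ZBED2 and SULF2 (each 0.991). ACSL5, which activates long-chain fatty acids, was at 10.9 and 11.3 CPM in untreated Empty, 9.95 and 9.96 in treated Empty, 18.1 and 18.4 in untreated NeuT and 20.2 and 19.4 in treated NeuT. ACSL5 kept the order of the groups seen in TXNIP with smaller steps. In ZBED2 the log2 difference with JG-98 was -0.41 in Empty and -0.00466 in NeuT, with no rise in NeuT to match that of TXNIP. The Spearman rho of the 5 genes with TXNIP was 0.905 to 0.976. For ARRDC4 the most alike were MTCO3P12 (0.909), ENSG00000287550 (0.907), MTND2P28 (0.902), MTND1P23 (0.898) and MAP2K6 (0.885), with a Spearman rho of 0.762 to 0.857. Of these, 3 are copies of mitochondrial genes whose reads cannot be separated with certainty from mitochondrial transcripts. The points are libraries of 4 groups that share line and treatment, so r is a description.

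ARRDC4 was 1 of 8 genes called lower with JG-98 in both lines, which were 57.1% of the genes called lower in Empty and 4.49% of those in NeuT. The others, named after their values were seen, were PLOD2, a collagen lysyl hydroxylase, BNIP3, a mitophagy receptor, and 5 mitochondrial gene copies (MTND2P28, MTCO1P12, MTCO3P12, MTND4P12 and MTCO1P40). PLOD2 had log2 differences of -0.37 (adjusted p = 0.00731) in Empty and -0.28 (adjusted p = 0.00951) in NeuT, and BNIP3 of -0.37 (adjusted p = 0.0468) and -0.32 (adjusted p = 0.0239). The Empty calls of PLOD2 and BNIP3 were lost without any 1 of the 4 Empty libraries, and their NeuT calls without either untreated NeuT library. BNIP3 also lost its Empty call with limma-voom (adjusted p = 0.124) and without either untreated NeuT library, and its NeuT call without either untreated Empty library or treated NeuT replicate 2. Its NeuT log2 difference was -0.20 without treated replicate 2 and -0.46 without treated replicate 1. The 8 genes became 5 to 7 without any 1 untreated or Empty library, 61 and 29 without treated NeuT replicate 1 and 2, and 19 with DESeq2, and ARRDC4 was among them in each case but that without untreated NeuT replicate 1. Outside the mitochondrial copies, ARRDC4 had the largest log2 fall of these genes in each line.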

How the data were processed

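Counts of MCF-10A libraries were taken as the authors deposited them, as raw read counts per Ensembl gene in featureCounts layout. Reads were handled with Trim Galore 0.5.0, FastQC 0.11.7, HISAT2 2.1.0, SAMtools 1.9 and featureCounts 1.6.3 on hg38/GRCh38, with limma also named, per the submitters' processing notes. The annotation's release, and whether strand or multiply mapped reads were used, are not given in the sources used here. The authors also deposited, per the file headers, a log2 fold change and mean log2 expression, a test score and p-values per gene for each line.

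Samples were grouped by title, and 0 columns matched no sample. Symbols were found for 60261 of 60617 identifiers. In edgeR 4.0.16 (R 4.3.3), filterByExpr (minimum count 10, total 15) kept 17693 genes. TMM scaling and 1 robust quasi-likelihood fit to all 8 libraries, with a coefficient per group, gave 5 contrasts. Benjamini-Hochberg adjustment of p-values covered all genes tested, and called means an adjusted p under 0.05. The SE is the log2 difference divided by the root of F. With 2 libraries per group the smallest exact permutation p is 0.333, so tests rest on the spread shared across genes. CPM per kb uses the deposited exonic length.

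The members and all 9 gene lists were chosen with earlier results of these data known. Listed genes are named where called, at most 4 per list and contrast by lowest adjusted p. Genes like TXNIP or ARRDC4 are the 5 with the highest Pearson r of log2 CPM (prior count 2). Deviations of same-numbered replicates correlated between groups at -0.101 to 0.244 over 9551 genes, so libraries were not treated as paired. Alternatives were RLE size factors, library totals, 2 other count filters, DESeq2 1.42.0, limma-voom (limma 3.58.1), no robust estimation, a replicate block, only the 4 libraries compared, leaving out each library, and Spearman's rho for likeness. The fits without each library for pathway genes and lists were chosen after seeing the data. The code was tested on simulated data. Motifs were matched in RefSeq windows of GRCh38.p14.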

Additional observations from a re-analysis of the deposited data

Results flagged for a closer look

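The change of TXNIP with JG-98 differed in direction between the lines, with the NeuT change minus the Empty change at 0.80 on the log2 scale. Both treated Empty libraries were below both untreated Empty libraries, and both treated NeuT libraries were above both untreated NeuT libraries. TXNIP was selected for this difference, so it is given as a description, with no p.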

How the results depend on the processing

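With 2 libraries per group, counts of called genes moved widely between settings. With JG-98 in Empty, 60 genes were called, against 282 with no filter on low counts, 151 with DESeq2, 205 in a fit of only the 4 libraries compared, and 9 (without treated Empty replicate 1) to 417 (without treated NeuT replicate 1) when 1 library was left out, where each of the 8 moved the count by over 1.5 times. In NeuT 533 were called, against 1000 with no filter, 185 with only 4 libraries, and 132 (without untreated NeuT replicate 1) to 2133 (without treated NeuT replicate 1). Leaving out untreated NeuT replicate 2 or either untreated Empty library also moved the NeuT count by over 1.5 times (143, 343 and 344). For the difference between the lines 1 gene was called, against 2 with library totals, 138 with no filter, 26 with DESeq2, 3 without robust estimation, and 1 to 777 when 1 library was left out, the highest again without treated NeuT replicate 1. With the replicate block the calls were 66 in Empty, 593 in NeuT and 1 for the difference, 9538 against 9507 between the lines averaged and 7497 against 7423 in untreated cells. The replicate block changed no call among the tests made on the members.

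Leaving out 1 library at a time gave TXNIP changes of 0.167 to 0.26 in NeuT and 0.743 to 0.836 for the difference, and 1.46 to 1.53 between untreated lines, where library totals gave 1.41. ARRDC4 ranged from -0.528 to -0.436 in NeuT (adjusted p up to 0.10), 0.383 to 0.519 for the difference (called only without treated NeuT replicate 1) and 0.146 to 0.215 averaged between lines, where library totals gave 0.109. Between untreated lines ARRDC4 ranged over -0.0793 to 0.00342 and turned sign.

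Small values also turned sign. The ARRDC3 difference between untreated lines was -0.00108 and became 0.00734 with RLE or DESeq2, 0.000953 with no filter, 0.00925 with at least 10 counts in every library and 0.00379 with only 4 libraries, and -0.00581 to 0.0245 when 1 library was left out. With 1 library left out, ARRDC3 in Empty ranged from -0.0451 to 0.00015. In NeuT the ranges were -0.000188 to 0.117 for ARRDC1, -0.168 to 0.127 for ARRDC2, -0.191 to 0.0326 for MLXIP and -0.107 to 0.0482 for MLX. For the difference between the lines they were -0.0426 to 0.0739, -0.137 to 0.159, -0.0266 to 0.197 and -0.152 to 0.00235 for the same 4 genes. MLXIP was called higher in untreated NeuT with only the 4 libraries compared (0.118, adjusted p = 0.0183, in a range of 0.0183 to 0.637) and without either treated NeuT library. The causes of these shifts were not tested. Treated Empty replicate 1 had the lowest depth.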
